A study of Mus musculus with 9 samples.

Results

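The 10 genes described here encode the 4 chains of the receptors for interferons (Ifngr1, Ifngr2, Ifnar1, Ifnar2), the 3 Janus kinases that those receptors use (Jak1, Jak2, Tyk2), 2 feedback inhibitors (Socs1, Socs3) and the transcription factor Stat3. They were chosen by symbol from a table of 24421 rows, each of which gives the number of reads counted on a gene. All 10 had 1 row each and all 10 passed the filter on low counts in both comparisons. SB28, a GFP-expressing glioma line of the mouse, was implanted in the brain of C57BL/6 mice. The tumor cells were recovered by a sort for cells that lacked CD45 and CD11b and were positive for GFP. BAL101553 (lisavanbulin) is an oral prodrug whose active form, BAL27862, binds tubulin and activates the spindle assembly checkpoint.

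The control group held 3 libraries of ex vivo SB28 cells from C57BL/6 mice given vehicle, and the BAL101553 group held 3 from C57BL/6 mice given BAL101553. Another group of 3 libraries has BAL101553 as its treatment label, C57BL/6 as its strain label and astrocytes as its cell type label. The study's text does not name that group, so how its cells were obtained is not given in the sources used here. All SB28 libraries come from 1 cell line, with no second line or clone. BAL101553-treated tumors were harvested later than control tumors, so treatment and time of growth cannot be told apart. The labels call the SB28 material whole tissue, where the methods describe a sort, and the study states fewer ex vivo samples per group than the 3 columns in the table. The labels give no age of the mice, although the study's methods state an age range in weeks at implantation. Nothing ties a library to a single mouse, so p-values measure the spread between libraries, which may be partly technical.

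Library totals ran from 24540452 to 28761388 reads in controls, from 26667789 to 34013875 after BAL101553 and from 22919523 to 29230743 in the libraries labelled astrocytes. Libraries of a group differed by more than sampling noise, with a chi-square of 14.3 to 64.9 per degree of freedom. In the libraries labelled astrocytes, 10 astrocyte marker genes summed to between 13122 and 16087 CPM, against 760 to 1148 CPM in SB28 libraries. CPM is the count divided by the library size in units of 1000000 reads, after a TMM factor over all 9 libraries that lines up the bulk of genes. The same libraries also held 10498 to 13039 CPM over 6 oligodendrocyte markers and 722, 1500 and 1117 CPM over 15 microglia and macrophage markers. They are therefore called here the libraries labelled astrocytes. In SB28 libraries the microglial sum was 200 to 333 CPM in controls and 367 to 426 CPM after BAL101553, with Tmem119 alone at 154 to 284 and 305 to 377 CPM. Of 8 microglial markers tested in that comparison, 3 had a positive fold change and 5 a negative one. P2ry12 alone was called, and it was lower after BAL101553 (log2 fold change -1.88, adjusted p = 0.0313 by edgeR's test). Ptprc, which encodes CD45, stayed at or below 0.333 CPM in SB28 libraries and Csf1r between 0.372 and 0.665 CPM. Other marker sums also differed with treatment in SB28: control against BAL101553 libraries held 1061 to 1148 against 760 to 921 CPM over the astrocyte list, 740 to 879 against 540 to 658 CPM over 8 endothelial markers and 32.1 to 79.2 against 12.8 to 24.5 CPM over 8 neuronal markers, with Rbfox3 at 0 in both groups. Gja1 made up most of the astrocyte sum (mean 902 CPM in controls and 693 CPM after BAL101553) and Cdh5 most of the endothelial sum (756 and 524 CPM). Nefl (mean 24.3 and 5.43 CPM) and Nefm (20.8 and 4.26 CPM) made up most of the neuronal sum in controls. Of 5 neuronal markers tested, 2 had a positive fold change and 3 a negative one, and Nefm alone was called. Among 7 endothelial markers tested, 2 had a positive fold change and 5 a negative one. Cdh5 alone was called, and it was lower (adjusted p = 0.0195 by edgeR's test). In SB28 libraries the astrocyte marker Aqp4 was at or below 0.208 CPM, and the endothelial markers Cldn5 and Pecam1 were at or below 1.45 CPM and 1.19 CPM. After BAL101553, 4 of the 7 astrocyte markers tested had a positive fold change and 3 a negative one. Of these, 1 was called higher (Slc1a3) and 2 were called lower (Gja1 and Sox9). Of 9 T and NK cell markers, 7 were at 0 in each SB28 group. The part of other cells in the results was not tested. In bulk samples, fewer cells of a type and less RNA per cell cannot be told apart.

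Interferon-γ binds IFNGR1 and needs IFNGR2 to signal, through JAK1 and JAK2, to STAT transcription factors. Type I interferons bind the pair IFNAR1 and IFNAR2, which use TYK2 and JAK1 to activate STAT2, joined by IRF9. SOCS1 and SOCS3 are induced by these pathways and by cytokines of the IL-6 family, which signal through gp130 and STAT3, and they act back on the JAKs and receptors to end the signal; in brain tumors these pathways set, among other things, how much antigen tumor cells present to T cells.

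The bases upstream of Socs1 and Ifngr2 are shown because these genes had the lowest levels relative to SB28 in the libraries labelled astrocytes. Each run holds the 250 bases before the RefSeq start site on GRCm38.p6, written 5′ to 3′ on the strand of the gene. The Socs1 run lies at chr16:10785537-10785786 on the minus strand and the Ifngr2 run at chr16:91546809-91547058 on the plus strand. Capitals mark the match to the motif below.
Socs1: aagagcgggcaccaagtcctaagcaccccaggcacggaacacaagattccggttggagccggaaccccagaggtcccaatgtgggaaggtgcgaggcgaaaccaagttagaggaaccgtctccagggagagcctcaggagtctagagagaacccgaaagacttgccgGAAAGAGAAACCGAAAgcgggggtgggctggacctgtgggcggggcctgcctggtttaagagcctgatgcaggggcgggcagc
Ifngr2: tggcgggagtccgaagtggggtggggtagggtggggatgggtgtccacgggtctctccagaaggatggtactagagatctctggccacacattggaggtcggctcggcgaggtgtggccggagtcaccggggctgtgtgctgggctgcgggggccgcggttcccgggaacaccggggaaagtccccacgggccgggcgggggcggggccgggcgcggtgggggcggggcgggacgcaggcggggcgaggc
The letters GAAA, any 2 bases and GAAA again, which resemble the core of the interferon-stimulated response element, were searched on both strands. Of 32851 such upstream windows in the table, 978 (2.98%) held them, and among the 10 genes Socs1 alone did, with 2 overlapping matches between bases -83 and -68. The letters TTCNNNGAA, which resemble a STAT binding element, were found in 2306 windows (7.02%). Among the 10 genes they occurred upstream of Ifnar2, starting at base -214, and of Socs3, starting at base -154. A match describes the letters and is not a measured site.

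Which receptor, kinase and inhibitor transcripts differed in ex vivo SB28 cells of BAL101553-treated mice was asked first. Ifngr1 and Jak2 were higher than in controls, by 1.31-fold and 1.27-fold, and no member was called lower by edgeR, where 1 (Jak1) had an unadjusted p under 0.05 and was called by DESeq2. Thus 2 of 10 genes passed, against 14.7% of all 12633 genes tested by edgeR's quasi-likelihood test at an adjusted p of 0.05 (8.64% higher and 6.09% lower). In 3 of the 10 the libraries of the groups did not overlap, against 39.7% of all genes tested. The median log2 fold change was 0.01 over the 10 genes and 0.02 over all genes. For BAL101553 against control, the split of calls over all genes was 1091 higher and 769 lower, and with scaling to the total library size 1456 higher and 425 lower. Ifngr1 passed in 9 and Jak2 in 7 of 23 alternative fits. Both kept their direction in all 23. Ifngr1 did not pass without control library 1, 2 or 3 (adjusted p = 0.0782, 0.0820 and 0.110 by edgeR) or without BAL101553 library 3 (0.0880). Jak2 passed in no fit that left out a library, with adjusted p between 0.0547 (without BAL101553 library 2) and 0.125 (without control library 3) when 1 was left out.

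**Figure D1:**
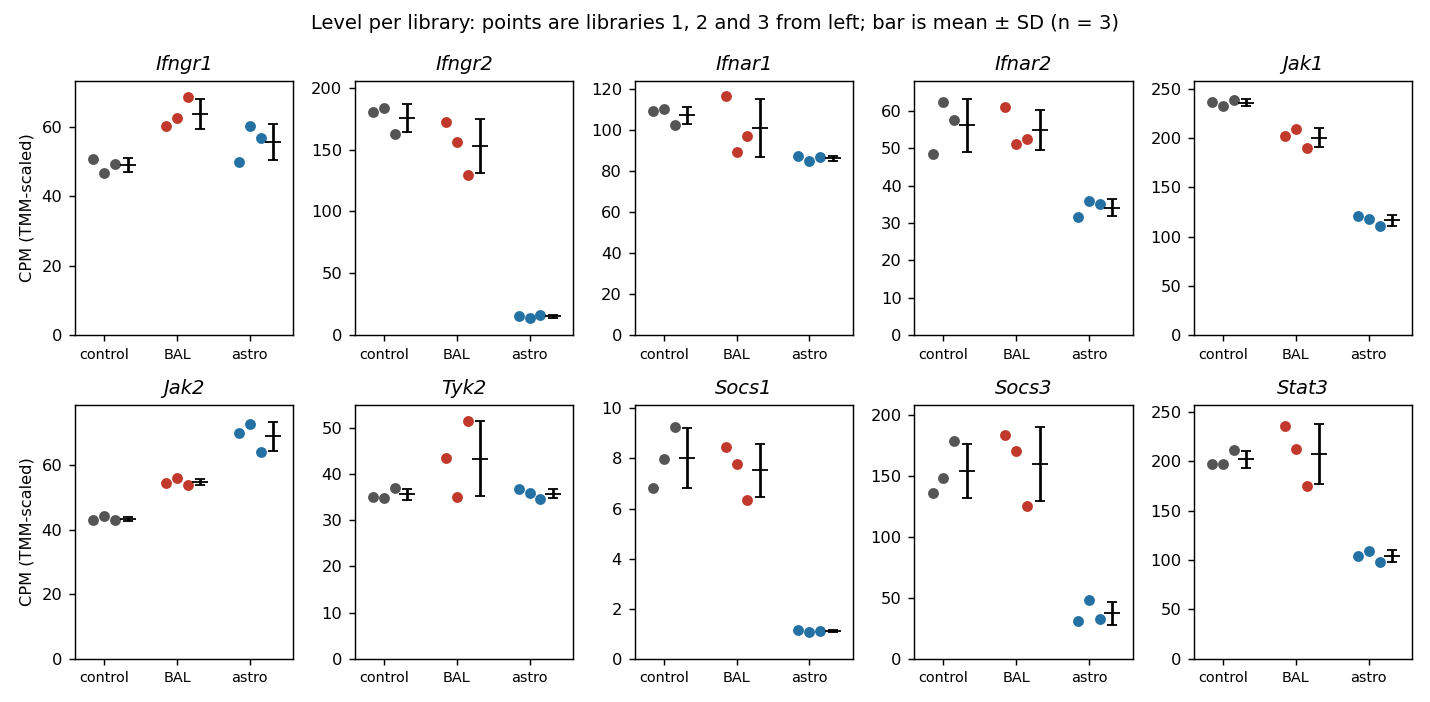
Level of each of the 10 genes in CPM (linear axis from 0) in every library of the control, BAL101553 (BAL) and astrocytes-labelled (astro) groups, with the mean and SD (n = 3) beside the points. Ifngr1 and Jak2 lie higher in all 3 BAL101553 libraries than in any control library, and Ifngr2, Socs1 and Socs3 lie lowest in the libraries labelled astrocytes.

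Ifngr1 (chr10:19591949-19610229 on GRCm38, plus strand) encodes the chain that binds interferon-γ. Its level was 50.7, 46.7 and 49.2 CPM in the control libraries and 60.12, 62.5 and 68.6 CPM in the BAL101553 libraries. All BAL101553 libraries were above all control libraries. Means were 48.9 ± 2.0 and 63.7 ± 4.35 CPM (SD, n = 3), a log2 fold change of 0.39 with a standard error of 0.091 and an adjusted p of 0.0311 (edgeR quasi-likelihood test). Ifngr1 read 49.8, 60.09 and 56.7 CPM in the libraries labelled astrocytes, all under the lowest BAL101553 library, with a log2 fold change of -0.23 that was not called (adjusted p = 0.0586). The highest of these 3 values was in library 2. That library also had the highest microglial and oligodendrocyte sums and the lowest astrocyte sum. Ifnar2, Jak2, Socs3 and Stat3 were highest there too, and Ifngr2, Ifnar1, Jak1, Tyk2 and Socs1 were not. The part of other cells in these values was not tested.

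Ifngr2 (chr16:91547072-91565623, plus strand) encodes the chain that completes the interferon-γ receptor. Control libraries gave 180, 184 and 162 CPM and BAL101553 libraries 172, 156 and 129 CPM. The groups overlapped, and the log2 fold change of -0.19 (standard error 0.12) did not pass (adjusted p = 0.297 by edgeR's test). The libraries labelled astrocytes gave 15.1, 14.2 and 15.9 CPM, 10.4-fold lower than the BAL101553 libraries. On the log2 scale this was -3.38 ± 0.13 (SE), with an adjusted p of 1.24e-07 by edgeR's test, and it was the largest among the 10 genes in that comparison.

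Ifnar1 (chr16:91485238-91507441) and Ifnar2 (chr16:91372783-91405589), both on the plus strand, encode the chains of the type I interferon receptor and lie near Ifngr2 on chromosome 16. Ifnar1 stood at 109, 110 and 102 CPM in controls and at 116, 89.3 and 97.3 CPM after BAL101553. Ifnar2 stood at 48.4, 62.2 and 57.6 CPM in controls and at 61.0, 51.2 and 52.5 CPM after BAL101553. For both genes the groups overlapped, and edgeR's test passed neither (Ifnar1 at -0.08 on the log2 scale, adjusted p = 0.649, and Ifnar2 at -0.02, adjusted p = 0.904). The sign of both turned when libraries were scaled to their totals. Ifnar2 read 31.6, 35.8 and 34.95 CPM in the libraries labelled astrocytes, 1.65-fold lower than after BAL101553 (log2 fold change -0.72, standard error 0.11, adjusted p = 0.000272 by edgeR's test). Ifnar1 read 87.2, 84.8 and 86.8 CPM there; all 3 values were below those of the BAL101553 libraries, and the log2 fold change of -0.26 was not called (adjusted p = 0.0540).

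Jak1 (chr4:101152367-101265282, minus strand) encodes the kinase shared by both receptor types and by gp130. Its level was 237, 232 and 238 CPM in controls and 202, 209 and 190 CPM after BAL101553. Every BAL101553 library was below every control library, and the log2 fold change of -0.23 (standard error 0.081) missed the threshold (adjusted p = 0.0915 by edgeR's test). It passed with DESeq2 (adjusted p = 0.0410) and with all 9 libraries in one model (adjusted p = 0.0467). The libraries labelled astrocytes read 121, 118 and 110 CPM, 1.76-fold lower than after BAL101553, or -0.81 ± 0.079 on the log2 scale (SE, adjusted p = 2.35e-05 by edgeR's test). Raver2 overlaps Jak1 on the opposite strand and had at most 1 read in an SB28 library and 754 to 1002 reads in the libraries labelled astrocytes; its part was not tested.

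Jak2 (chr19:29251828-29313080, plus strand) encodes the kinase bound to IFNGR2. Control libraries gave 43.2, 44.3 and 43.0 CPM, and BAL101553 libraries gave 54.7, 56.0 and 54.0 CPM. The groups did not overlap, and the spread within each was near 1 CPM (SD 0.69 and 1.06). The log2 fold change was 0.34 with a standard error of 0.082 and an adjusted p of 0.0330 (edgeR quasi-likelihood test). Jak2 was the only one of the 10 genes called higher in the libraries labelled astrocytes, which read 70.1, 73.0 and 64.1 CPM. This was 1.23-fold above the BAL101553 libraries (log2 fold change 0.30, standard error 0.079, adjusted p = 0.00805 by edgeR's test).

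Tyk2 (chr9:21104068-21131243, minus strand) encodes the kinase bound to IFNAR1. Control libraries gave 34.9, 34.8 and 37.1 CPM and BAL101553 libraries 43.4, 35.1 and 51.5 CPM. The BAL101553 libraries were widely spread, and library 2 lay within the control range; the log2 fold change of 0.29 (standard error 0.14) was not called (adjusted p = 0.188 by edgeR's test). It passed without BAL101553 library 2 (adjusted p = 0.0485). In the libraries labelled astrocytes, at 36.7, 35.9 and 34.6 CPM, Tyk2 overlapped the BAL101553 group and was not called (log2 fold change -0.32, adjusted p = 0.0731).

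**Figure D2:**
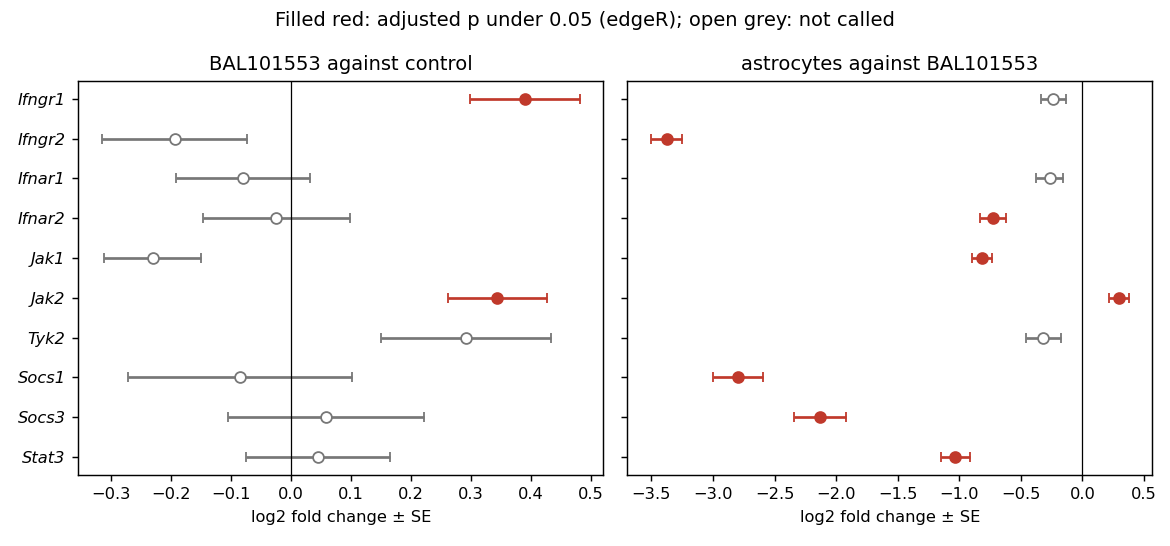
Log2 fold change of each of the 10 genes with its standard error, for BAL101553 against control (left) and for the libraries labelled astrocytes against BAL101553 (right; note the wider axis). Filled points passed an adjusted p of 0.05 in edgeR's test; on the left these are Ifngr1 and Jak2, and on the right 7 genes, of which Jak2 alone lies above 0.

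Socs1 (chr16:10782240-10785536, minus strand) encodes a direct inhibitor of JAK kinases. It had 6.84, 7.97 and 9.25 CPM in controls and 8.44, 7.78 and 6.36 CPM after BAL101553. The groups overlapped (log2 fold change -0.08, standard error 0.19, adjusted p = 0.777 by edgeR's test). The libraries labelled astrocytes gave 1.14, 1.06 and 1.12 CPM, which is 29 to 36 reads each. This was 6.95-fold lower than after BAL101553, a log2 fold change of -2.80 with a standard error of 0.20 and an adjusted p of 4.39e-06 (edgeR quasi-likelihood test).

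Socs3 (chr11:117966079-117970047, minus strand) encodes the inhibitor that binds gp130 and JAKs. Its level was 136, 148 and 179 CPM in controls and 183, 171 and 125 CPM after BAL101553. The BAL101553 libraries held both the highest and the lowest of the 6 values (log2 fold change 0.06, standard error 0.16, adjusted p = 0.824 by edgeR's test). The libraries labelled astrocytes gave 30.7, 48.3 and 33.0 CPM, 4.38-fold lower than after BAL101553 (log2 fold change -2.13, standard error 0.21, adjusted p = 2.58e-05 by edgeR's test). The highest of these was again library 2, with the highest microglial and oligodendrocyte sums and the lowest astrocyte sum. The part of those cells was not tested.

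Stat3 (chr11:100885098-100939540, minus strand) encodes the main transcription factor downstream of gp130. It stood at 197, 197 and 212 CPM in controls and at 235, 212 and 174 CPM after BAL101553. The groups overlapped, at 0.05 ± 0.12 on the log2 scale (SE, adjusted p = 0.814 by edgeR's test). It read 104, 109 and 97.7 CPM in the libraries labelled astrocytes, 2.04-fold lower than after BAL101553, or -1.03 ± 0.12 on the log2 scale (SE, adjusted p = 6.82e-05 by edgeR's test). Stat5a overlaps it on the opposite strand, with 110 to 258 reads after BAL101553 and 297 to 324 in the libraries labelled astrocytes; Stat3 itself had 2534 reads or more in every library.

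The second comparison set the libraries labelled astrocytes against the BAL101553 SB28 libraries; both carry the BAL101553 treatment label, and the SB28 libraries are those of the first comparison. Of the 10 genes, 6 were lower and 1 was higher, against 85.1% of all 15314 genes called in either direction (46.3% higher, 38.9% lower). In 9 of 10 the groups did not overlap, against 87.9% of all genes. A share of 7 in 10 is thus under the background of this comparison. The median log2 fold change was -0.77 over the 10 genes and 0.18 over all genes, and by role it was -0.49 for the receptors, -0.32 for the kinases and -2.13 for Socs1, Socs3 and Stat3. Scaling to the total library size moved the median of all genes by 0.20. All 7 calls held in each of 15 alternatives.

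Levels per kilobase of exon allow genes to be compared with one another. On this scale, in controls, Socs3 was highest (53.3 CPM per kilobase), followed by Ifngr2 (46.6), Jak1 (32.6), Stat3 (21.2), Ifnar1 (18.1), Ifngr1 (17.2), Ifnar2 (16.9), Jak2 (8.64), Tyk2 (5.19) and Socs1 (2.76). Socs3 and Ifngr2 overlapped, and so did Ifnar1, Ifngr1 and Ifnar2; the other neighbours did not. After BAL101553 the first 3 and last 4 places were the same, and Ifngr1 followed Jak1 at 22.4 CPM per kilobase, overlapping Stat3 at 21.7. In the libraries labelled astrocytes Ifngr1 came first (19.5 CPM per kilobase) and Jak1 second (16.1), while Socs3 (12.9) lay in the middle, overlapping Jak2 (13.7) and Stat3 (10.9). Ifngr2 (4.0) and Socs1 (0.38) were last.

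**Figure D3:**
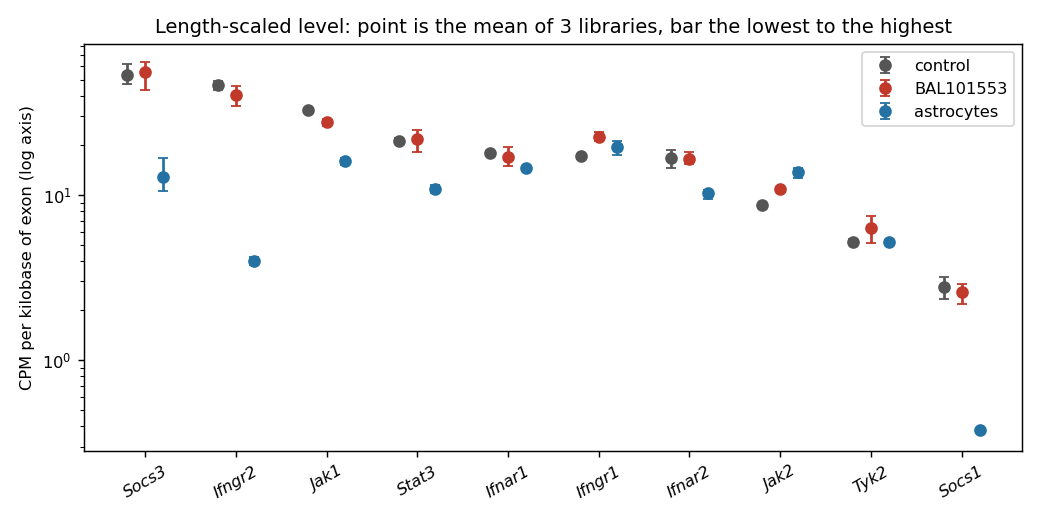
Level of the 10 genes in CPM per kilobase of exon on a log axis, ordered by the control mean; points are means of 3 libraries and bars run from the lowest to the highest library. Socs3 and Ifngr2 head the order in both SB28 groups, and Ifngr2 is at 46.6 in controls and at 4.0 in the libraries labelled astrocytes.

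Ratios within a library do not depend on its scaling. The length-scaled ratio of Ifngr2 to Ifngr1 was 2.69, 2.97 and 2.49 in controls and 2.17, 1.89 and 1.43 after BAL101553. In the libraries labelled astrocytes it was 0.229, 0.178 and 0.212, so that the transcript of the binding chain exceeded that of its partner there and not in SB28. The ratio of Jak1 to Jak2 was 3.82, 3.66 and 3.86 in controls, 2.57, 2.59 and 2.45 after BAL101553 and 1.20, 1.13 and 1.20 in the libraries labelled astrocytes. Neither ratio overlapped between any groups. For Jak1 to Jak2 this was fixed by the levels above, since both genes separated without overlap and in opposite directions in both comparisons. It is therefore no further result. Ifnar1 to Ifnar2 lay between 0.991 and 1.26 in controls and 0.977 and 1.07 after BAL101553, with overlap, and between 1.33 and 1.55 in the libraries labelled astrocytes. Socs3 to Socs1 lay between 18.7 and 20.0 in controls, 19.8 and 22.1 after BAL101553, and 27.2 and 45.8 in the libraries labelled astrocytes. With 3 libraries against 3, an exact two-sided permutation test cannot give a p below 0.1, the value reached for Ifngr2 to Ifngr1 and for Jak1 to Jak2 in BAL101553 against control (adjusted p = 0.133 over 8 such tests).

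**Figure D4:**
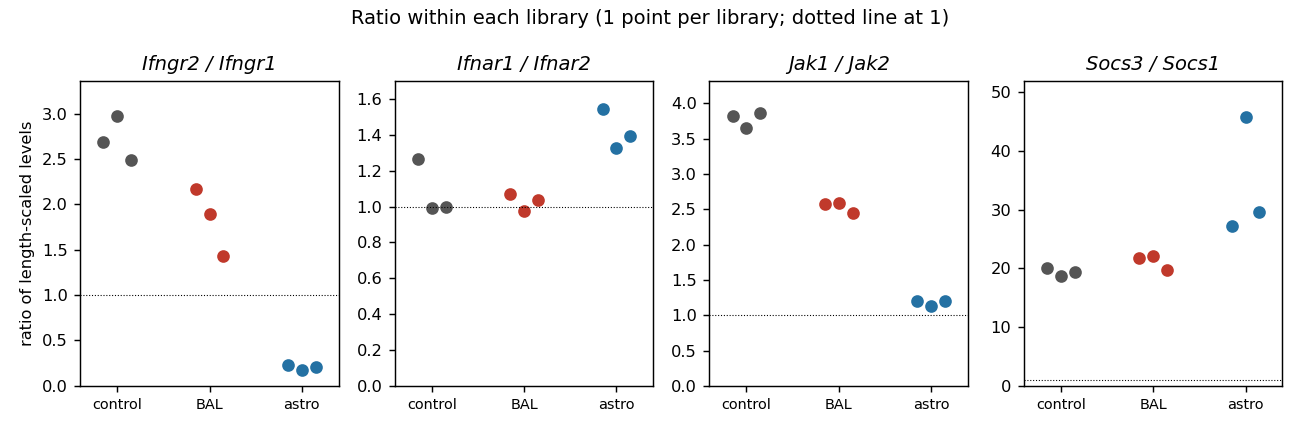
Ratio of length-scaled levels within each library for 4 pairs (1 point per library, linear axes from 0, dotted line at a ratio of 1). Jak1 to Jak2 lies between 3.66 and 3.86 in controls and between 2.45 and 2.59 after BAL101553, and Ifngr2 to Ifngr1 is below 1 in the libraries labelled astrocytes alone.

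Within the 6 SB28 libraries, levels of Socs1, Socs3 and Stat3 moved together, with a Pearson correlation of log2 CPM of 0.907 between Socs1 and Socs3, 0.925 between Socs3 and Stat3 and 0.770 between Socs1 and Stat3. Jak1 ran opposite to Ifngr1 (-0.951) and to Jak2 (-0.902), and Ifngr1 ran with Jak2 (0.914). These describe 6 libraries that share a treatment split. Among 12623 genes, those most like Socs1 were Mtmr4 (0.965), 1810014B01Rik (0.951) and Siah2 (0.948). The genes most like Socs3 were Zfat (0.987), Sugct (0.972) and Mtmr3 (0.971). As the highest of so many values over 6 libraries, these were picked for being high and were not tested, so no link is drawn from them.

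Interferon transcripts, with Ifnl2 and Ifnl3 among the genes counted, were nearly absent from these libraries. Of 21 interferon genes, 17 had no read in any control library, 17 none in any BAL101553 library and 18 none in the libraries labelled astrocytes. Ifng had no read in any SB28 library, where a floor of 3 reads amounts to between 0.0871 and 0.134 CPM, and 4, 2 and 6 reads in the libraries labelled astrocytes. Ifnb1 had 0, 0 and 3 reads in controls, 0, 0 and 8 after BAL101553 and 0, 1 and 0 in the libraries labelled astrocytes. No ligand passed the filter, so none was tested. Per the methods the SB28 cells were sorted for lack of CD45, so these counts do not describe ligand made by CD45-positive cells. In whole tumor lysates the study reports, with data not shown, a trend to more IFN-γ protein than in healthy brains.

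Among 8 other STATs, IRF9 and JAK3, of which 7 were tested, 2 were higher after BAL101553 and 0 lower by edgeR or DESeq2. Over all genes, edgeR called 8.64% higher and 6.09% lower. In the list, 1 gene was lower at an unadjusted p under 0.05. The median log2 fold change was -0.16, against 0.02 over all genes. Jak3, the kinase of the common gamma chain receptors, had 9.92, 8.52 and 6.79 CPM in controls and 22.2, 49.9 and 23.6 CPM after BAL101553. Its log2 fold change was 1.93 (standard error 0.33, adjusted p = 0.0140 by edgeR's test). Stat2, a transcription factor of the type I response, had 26.2, 33.2 and 40.7 CPM in controls and 46.4, 93.9 and 63.0 CPM after BAL101553 (log2 fold change 1.03, standard error 0.26, adjusted p = 0.0390). In both genes BAL101553 library 2 was the highest. Jak3 kept its call in 16 of 23 alternatives and lost it without control library 3 (adjusted p = 0.0667), and Stat2 kept it in 9 and, with 1 library left out, only without BAL101553 library 1. Irf9 (log2 fold change 0.13, adjusted p = 0.727) was not called.

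Of the 6 other SOCS genes, 0 were called by edgeR, DESeq2 or the exact test, and 1 had an unadjusted p under 0.05 by edgeR. Over all genes, edgeR called 14.7% in either direction. Socs4, the one with the smallest p, at 0.46 on the log2 scale, had an unadjusted p of 0.0297 and an adjusted p of 0.108. Of 9 PIAS, phosphatase and USP18 genes tested, 0 were called by edgeR or the exact test and 1 by DESeq2, and 1 had an unadjusted p under 0.05 by edgeR. Ptpn2, which encodes a phosphatase of JAKs and STATs, had 38.5, 35.5 and 36.0 CPM in controls and 45.8, 43.3 and 45.1 CPM after BAL101553 (log2 fold change 0.30, adjusted p = 0.0621).

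Of 12 other JAK-coupled cytokine receptors tested, 3 were higher and 0 lower by edgeR after BAL101553, against 8.64% higher and 6.09% lower over all genes. DESeq2 called 5 higher and 1 lower, and 6 were higher and 1 lower at an unadjusted p under 0.05 by edgeR. The receptors had a list median of 0.40 on the log2 scale against 0.02 for all genes. Il6ra, the binding chain for IL-6, rose from 15.9, 15.8 and 14.8 CPM to 26.2, 24.0 and 23.3 CPM (log2 fold change 0.67, adjusted p = 0.0134 by edgeR's test). Lifr, the chain for LIF, rose from 8.22, 5.62 and 5.59 CPM to 10.8, 10.8 and 11.6 CPM (0.78, adjusted p = 0.0342). Osmr, the chain for oncostatin M, rose from 43.9, 37.0 and 43.9 CPM to 74.9, 76.3 and 56.2 CPM (0.74, adjusted p = 0.0185). These 3 are named because they were called. In none of them did the groups overlap, where 39.7% of all genes tested had no overlap. Il6st and Il11ra1 were also higher without overlap and Ghr lower, and edgeR called none of them. Of 5 ligands of the IL-6 and IL-10 families tested, Lif was higher, with 18.5, 16.7 and 15.6 CPM in controls and 29.7, 28.4 and 29.2 CPM after BAL101553 (log2 fold change 0.79, standard error 0.11, adjusted p = 0.00934). Il6ra and Lif each passed in 15, Osmr in 12 and Lifr in 9 of 23 alternatives. With 1 library left out, Il6ra and Lif lost the call without control library 3 (adjusted p = 0.0676 and 0.0524), Osmr without control library 1 or 3, and Lifr in all cases but that of control library 1.

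Of 26 interferon target genes, 1 was called higher after BAL101553 and 0 lower by edgeR, against 8.64% higher and 6.09% lower over all genes. DESeq2 called 2 higher and 1 lower, and 3 were higher and 1 lower at an unadjusted p under 0.05 by edgeR. The list median was 0.39 on the log2 scale, against 0.02 for all genes. The gene called by edgeR was Tap2, a peptide transporter for MHC class I, at 14.8, 22.7 and 27.4 CPM in controls and 30.8, 39.8 and 46.5 CPM after BAL101553 (log2 fold change 0.86, adjusted p = 0.0489). Of 16 STAT3 target genes, 2 were higher and 2 lower by edgeR, beside the same shares over all genes. Lcn2, which encodes lipocalin-2, had 0 to 4 reads in a control library and 22 to 90 in a BAL101553 library (adjusted p = 0.0184 by edgeR's test). Serpina3n, a protease inhibitor from a family of close copies whose reads may be split, was higher by 1.33 on the log2 scale (adjusted p = 0.0248). Timp1, an inhibitor of metalloproteinases, was lower by 2.08-fold (log2 fold change -1.06, adjusted p = 0.0141), and Ccnd1, which encodes cyclin D1, by 1.38-fold (-0.47, adjusted p = 0.0460). With 1 library left out, Tap2 passed only without BAL101553 library 1, Ccnd1 only without BAL101553 library 3 and Serpina3n only without BAL101553 library 2. Lcn2 lost its call without control library 1 or 3 and Timp1 without control library 3 or BAL101553 library 3.

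**Figure D5:**
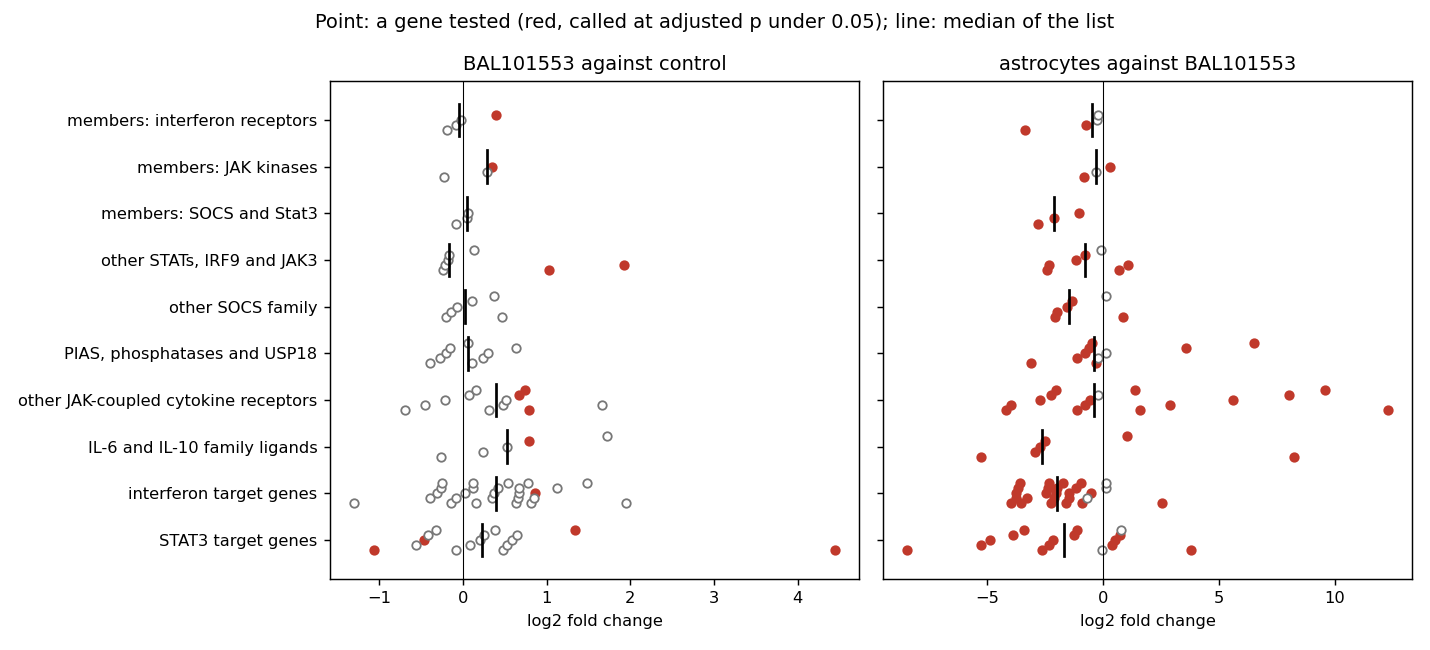
Log2 fold change of every tested gene of the 10 genes by role and of 7 pathway lists (1 point per gene, red when the adjusted p of edgeR's test was under 0.05, vertical line at the list median), for BAL101553 against control and for the libraries labelled astrocytes against BAL101553. In the left panel list medians lie between -0.16 and 0.52, and in the right panel interferon targets (-2.01) and STAT3 targets (-1.70) lie mostly to the left of 0.

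In the libraries labelled astrocytes, against the same BAL101553 libraries, 22 of 26 interferon targets were lower and 1 higher (median -2.01), and 10 of 16 STAT3 targets were lower and 4 higher (median -1.70), where 38.9% of all genes were lower. The largest differences were those of Bst2, which tethers virus particles (log2 fold change -3.97), and Nlrc5, a regulator of MHC class I genes (-3.76), and among STAT3 targets those of Timp1 (-8.45) and Myc (-5.27); each passed edgeR's test, with adjusted p between 7.42e-07 (Nlrc5) and 7.09e-05 (Myc). Stat2 (-0.79, adjusted p = 0.00963) and Irf9 (-1.16, adjusted p = 0.00114) were lower as well by edgeR's test. Rnf31 overlaps Irf9 and had 776 to 931 reads in these libraries, where Irf9 had 507 to 666. After BAL101553 Rnf31 had 737 to 988 reads and Irf9 933 to 1535, and the part of Rnf31 was not tested. The Stat2 call was lost against all 6 SB28 libraries (-0.34, adjusted p = 0.372), and its mean of 40.1 CPM in the libraries labelled astrocytes lay above the control mean of 33.3 CPM. Of the other STATs and JAK3, 2 were higher and 4 lower in all, with Stat6 (-2.43) and Jak3 (-2.35) the most different. Against all 6 SB28 libraries Jak3 was at -1.67, and its values of 4.98, 8.98 and 5.09 CPM overlapped those of the control libraries. Nab2 overlaps Stat6 on the opposite strand and was itself lower in reads in these libraries, at 315 to 357 against 4026 to 5790.

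The counts that follow stand beside 85.1% of all genes called in this comparison, 46.3% higher and 38.9% lower. Of 6 other SOCS genes, 4 were lower and 1 higher in the libraries labelled astrocytes, with Socs5 (-2.08) and Socs6 (-1.99) the most different. Of 10 PIAS, phosphatase and USP18 genes, 6 were lower and 2 higher. The latter were Ptprc and Ptpn6, leukocyte phosphatases at 8.26, 22.2 and 11.6 CPM and at 6.69, 15.4 and 11.2 CPM. Both were again highest in library 2, with its high microglial and oligodendrocyte sums. Ptprc is itself on the microglial list, and the part of those cells was not tested. Of 16 other cytokine receptors, 7 were higher and 8 lower. Cntfr, the receptor for ciliary neurotrophic factor, had 7966 to 10728 reads there and 1 to 3 in the BAL101553 libraries, and Il10ra had 426 to 719 against 0 to 1. Of 6 IL-6 and IL-10 family ligands tested, 2 were higher and 4 lower; Osm had 73 to 213 reads against 0 to 1, and Clcf1 was 39.0-fold lower.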

How the data were processed

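RNA sequencing libraries of 3 control, 3 BAL101553 and 3 astrocytes-labelled samples were analyzed. Per the labels, reads were processed on mm10 with TopHat and HTSeq 0.6.1; the study's methods describe stranded libraries, quality control with PicardTools, and HTSeq and featureCounts. The authors deposited raw counts, whole numbers of reads per gene without normalization. Which counter made the table, its annotation and its strand setting are not given in the sources used here. In 27 rows the gene name had become a date; they hold at most 0.440% of a library's counts, were kept in every fit, and no result is given for them by name.

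Groups were compared with R 4.3.3 and edgeR 4.0.16 (filterByExpr, TMM, quasi-likelihood test, only the 2 groups compared, Benjamini-Hochberg over all genes tested, threshold 0.05, two-sided), with DESeq2 1.42.0 and edgeR's exact test as alternatives; limma 3.58.1 was loaded by edgeR. CPM was scaled over all 9 libraries, and lengths and positions came from GENCODE vM21. Correlations used log2 CPM with a prior count of 2. Genes named were the 10 members, list members called in BAL101553 against control or else the smallest p, the 2 largest calls per list in the other comparison, Stat2, Irf9, and the nearest genes to Socs1 and Socs3; Tmem119 and overlapping genes were added after values were seen, as were the within-library ratios and their tests. Not every gene that the rule names is reported here. Gja1, Cdh5, Slc1a3, Pecam1, Sox9, P2ry12, Nefl and Nefm were also added after values were seen. The members and lists were chosen with earlier results of these data known. Fits were tested on simulated data. Alternatives were other tests, scalings and filters, all libraries in one model, libraries left out and the replicate number as a block. The floor of 3 reads covers counting error only. Standard errors came from edgeR's quasi-likelihood fit and SDs from the libraries of a group, so both include the spread between libraries. The library totals are given in the report; a gene with at most 3 reads is near what these depths can detect.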

Additional observations from a re-analysis of the deposited data

How the results depend on the processing

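In BAL101553 against control, calls over all genes numbered 1860, against 2832 with DESeq2 and 3022 with all 9 libraries in one model. With 1 library left out they numbered 193 (without control 3), 458 (without control 1), 668 (without BAL101553 3), 1133 (without BAL101553 1), 1260 (without control 2) and 1712 (without BAL101553 2), and with 2 libraries per group, chosen after seeing the data, between 1 and 1757. Called members numbered 2, between 0 and 2 when libraries were left out, and 3 with DESeq2 and with all 9 libraries. Without BAL101553 2 these were Ifngr1 and Tyk2, and without BAL101553 1 Ifngr1. Whether same-numbered libraries were paired is not given in the sources used here. In deviations from group means, same-numbered libraries of BAL101553 and control correlated at 0.143, 0.0114 and 0.146. Differently numbered ones correlated at -0.194 to 0.0820. For astrocytes and BAL101553 the values were -1.62e-05, 0.0581 and 0.0314 with the same number, and -0.0584 to 0.0286 with different numbers. These values do not settle whether libraries were paired. With the replicate number as a block, 1371 genes and 0 members were called. The causes were not tested.

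Some small differences turned sign. Scaled to total library size, Ifnar1 was 0.0069 and Ifnar2 0.060 (log2) in BAL101553 against control. Over the left-out libraries of BAL101553 against control, the log2 fold change ranged from -0.23 to 0.014 for Ifnar1, -0.21 to 0.097 for Ifnar2, -0.28 to 0.14 for Socs1, -0.14 to 0.32 for Socs3, -0.078 to 0.19 for Stat3 and -0.28 to 0.42 for Irf9. Stat2 in astrocytes was not called against all 6 SB28 libraries (-0.34). All 7 member calls in astrocytes against BAL101553 held in 15 alternatives. Socs1 in the libraries labelled astrocytes rests on 29 to 36 reads.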
